A study of Homo sapiens with 8 samples.

Results

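The 55 genes described here are the listed G2/M genes, apart from kinetochore and kinesin genes, that carry a cell from late G2 through mitosis to cytokinesis. They were found by matching the listed symbols to the Ensembl gene IDs of the count tables through GENCODE release 44 on GRCh38, and all 55 were found among the 60624 genes counted. All 55 also passed the filter on low counts that left 18661 genes for testing. For description they were sorted by role. There were 9 genes of the CDK1 switch, 6 for mitotic kinases and their activators, 4 of the chromosomal passenger complex, 11 for the anaphase-promoting complex (APC/C) and sister separation, 10 for spindle assembly, 4 for cytokinesis, 7 for condensin, 2 for chromosome structure and 2 for transcription factors.

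RNA was measured in A549 cells, an established human lung adenocarcinoma line, in 4 groups: untreated, indisulam alone, SPHINX31 alone, and indisulam with SPHINX31 (the combination). Indisulam brings about degradation of the splicing factor RBM39 protein, and SPHINX31 inhibits the kinase SRPK1, which phosphorylates splicing factors. By the study's description of the experiment, treatment lasted 24 h, with indisulam at 0.5 μM and SPHINX31 at 5 μM. The protocol text deposited with the libraries instead gives 2 μM indisulam for 18 h in every library, the untreated ones included. The study names that pair of values for an experiment in Panc10.05 cells, a pancreatic cancer line, and the A549 doses given here are those of the study. Each group held 2 technical replicates of 1 cell line, so that p-values measure only the spread between these libraries and not between independent treatments.

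The counts on genes ranged from 51727369 to 63186989 per library, and between 82.96% and 86.0% of the recorded reads were assigned to a gene. The share of reads outside annotated features was 4.49% to 5.87% in the 4 libraries with indisulam and 3.67% to 4.34% in the other 4, and its part in the results was not tested. The epithelial markers KRT8 and KRT18 were at 3417 to 4019 CPM (counts scaled to a common library size after TMM adjustment) over the 8 libraries, and EPCAM was at 25.7 to 34.2 CPM. Of the alveolar type 2 markers, ABCA3 was at 75.8 to 98.0 CPM, SFTPB had no count, and NKX2-1, SFTPA1 and SFTPC did not exceed 0.307 CPM. The 4 leukocyte markers reached at most 0.195 CPM, and the endothelial and fibroblast markers at most reached 2.39 CPM (PECAM1) and 4.58 CPM (COL1A1). The drug targets were read at the RNA level only, and the pairs of values here and below are replicates 1 and 2 of each group. From here on CPM are counts scaled to a common library size after TMM adjustment. RBM39 was at 154 and 157 CPM untreated, 361 and 360.3 with indisulam, 166 and 184 with SPHINX31 and 373 and 391 combined. Its transcript was higher with indisulam, with a log2 value of 1.22 (SE 0.055, edgeR adjusted p = 5.41e-09). SRPK1 was at 128 and 129.6 CPM untreated, 104 and 101 with indisulam, 118 and 131 with SPHINX31 and 109.6 and 109 combined. Against untreated cells the SRPK1 transcript was lower with indisulam (-0.33, SE 0.055, edgeR adjusted p = 0.000342) and in the combination (-0.23, SE 0.055, edgeR adjusted p = 0.00318).

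Entry into mitosis is driven by CDK1 bound to cyclin B, which WEE1 and PKMYT1 hold inactive and CDC25 phosphatases release. Condensin and topoisomerase II then compact the chromosomes, Aurora and Polo-like kinases build the spindle, and the APC/C destroys securin and cyclin B to start anaphase. Many of these genes are transcribed together in G2 through the MuvB complex with MYBL2 (B-MYB) and FOXM1, which acts at a short promoter element called the CHR, and through NF-Y at CCAAT boxes.

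The shared promoter elements were read from RefSeq promoter windows (250 bases before to 50 bases after a start site, GRCh38.p14), which were found for 47 of the 55 genes. TPX2, WEE1, PKMYT1, BIRC5, AURKA, FOXM1, RACGAP1 and UBE2C had no window in the table. The CHR was searched as TTTGAA or TTCGAA and the CCAAT box as CCAAT, each on both strands. Overlapping matches were each counted, and in CDCA8 and MKI67 a letter counts toward both motifs. A CHR match was present in 34 of the 47 genes (72.3%), against 19.5% of all 27305 genes with a window and 15.9% of the 12448 tested genes with one. At least 2 CCAAT boxes were present in 23 of the 47 (48.9%), against 12.9% of all genes, and a CHR together with at least 2 CCAAT boxes in 1 window was present in 19 (40.4%), against 2.35%. With each site counted once, the 34 genes held 50 CHR sites, of which 30 lay between 60 bases before and 50 bases after a start site. A gene with several windows was counted once. A match describes letters only, and does not show that a factor bound there.

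The 250 bases before the start site are shown for 5 genes because the results below turn on them: CCNB2, the gene called higher in the combination, PLK1, a gene with a CHR close to its start, TOP2A, among the genes that fell most, ANLN, the gene that fell most with SPHINX31, and NCAPH, the gene that fell most with indisulam. Each is written 5′ to 3′ on its gene's strand, with CHR and CCAAT matches in capitals (TTCAAA and ATTGG are matches on the opposite strand).
CCNB2: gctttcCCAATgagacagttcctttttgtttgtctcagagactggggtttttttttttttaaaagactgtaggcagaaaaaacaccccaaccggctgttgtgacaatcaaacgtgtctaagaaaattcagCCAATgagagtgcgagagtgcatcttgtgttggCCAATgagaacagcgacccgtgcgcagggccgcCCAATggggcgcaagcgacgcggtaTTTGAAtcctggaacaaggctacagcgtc
PLK1: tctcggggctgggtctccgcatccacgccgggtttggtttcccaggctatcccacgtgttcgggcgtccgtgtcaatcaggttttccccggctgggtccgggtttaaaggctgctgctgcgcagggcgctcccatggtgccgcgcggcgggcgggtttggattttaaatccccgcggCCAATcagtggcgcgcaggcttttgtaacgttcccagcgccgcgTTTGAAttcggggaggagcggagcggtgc
TOP2A: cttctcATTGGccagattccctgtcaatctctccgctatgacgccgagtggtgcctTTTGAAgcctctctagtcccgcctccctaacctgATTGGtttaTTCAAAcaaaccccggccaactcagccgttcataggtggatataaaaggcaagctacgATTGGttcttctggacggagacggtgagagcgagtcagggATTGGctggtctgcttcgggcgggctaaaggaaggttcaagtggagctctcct
ANLN: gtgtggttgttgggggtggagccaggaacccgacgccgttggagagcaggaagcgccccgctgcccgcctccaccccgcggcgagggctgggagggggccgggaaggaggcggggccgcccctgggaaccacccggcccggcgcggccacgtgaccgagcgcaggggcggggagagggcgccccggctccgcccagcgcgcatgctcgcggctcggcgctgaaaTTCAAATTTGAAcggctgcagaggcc
NCAPH: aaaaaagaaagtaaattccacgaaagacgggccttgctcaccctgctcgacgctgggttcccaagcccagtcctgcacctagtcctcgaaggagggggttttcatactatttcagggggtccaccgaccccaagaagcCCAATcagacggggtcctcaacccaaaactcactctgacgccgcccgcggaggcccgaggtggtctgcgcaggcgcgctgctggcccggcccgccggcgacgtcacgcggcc
The windows are chr15:59104896-59105145 on the plus strand for CCNB2, chr16:23678639-23678888 on the plus strand for PLK1, chr17:40417897-40418146 on the minus strand for TOP2A, chr7:36389612-36389861 on the plus strand for ANLN and chr2:96335516-96335765 on the plus strand for NCAPH. CCNB2 held 4 CCAAT boxes and a CHR at -29, and PLK1 held a single CCAAT box at -73 and a CHR, also at -29. TOP2A held 4 CCAAT boxes and 2 CHR matches at -194 and -151, and ANLN held 2 adjoining CHR matches at -26 and -20 with no CCAAT box. The PLK1 window lies inside the gene span that GENCODE gives, which begins further upstream. The NCAPH window held a single CCAAT box at -112 and no CHR letters.

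Among the genes with a window, a CHR match was present in 4 of the 12 that were higher with indisulam, in 11 of the 14 that were lower and in 19 of the 21 that passed in neither direction. For the genes lower in the combination than with indisulam alone the count was 25 of 34, against 9 of 13 for the rest.

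In untreated cells the levels per kilobase of exon (CPM per kb, union of all annotated exons, n = 2 libraries) ran from 103 ± 6.2 (SD) for TOP2A, the enzyme that untangles DNA, down to 2.38 ± 0.036 for WEE1, leaving aside NUSAP1 and PRC1. ECT2 followed TOP2A with 96.3 ± 4.4 CPM per kb and CCNB1 with 94.1 ± 1.6 CPM per kb, and ECT2 and CCNB1 differed by less than their spread. CDC25B was next at 84.5 ± 2.5 CPM per kb. The order moved when the longest transcript was taken as the length, with ECT2 first at 120.2 CPM per kb and TOP2A second at 115 CPM per kb.

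NUSAP1 and PRC1 were hardly counted and cannot be read as measured. NUSAP1, a microtubule bundling protein of the spindle, had 24 to 44 counts per library, and PRC1, which bundles microtubules in the midzone, had 122 to 187 counts per library. A read-through gene model on the same strand shares 81.4% of NUSAP1's exonic bases and had 0 counts in every library, and another shares 57.6% of PRC1's exonic bases and had 289 to 1117 counts. The model over PRC1 was higher than in untreated cells with indisulam (log2 value 1.09, edgeR adjusted p = 1.04e-05) and in the combination (0.67, edgeR adjusted p = 0.00052). It was lower with SPHINX31 (-0.47, edgeR adjusted p = 0.0467) and in the combination against indisulam (-0.42, edgeR adjusted p = 0.0469). On chromosome 15, where NUSAP1 and PRC1 lie, 208337 to 259357 reads per library were set aside as ambiguous. Neither NUSAP1 nor PRC1 passed the test in any comparison, and the numbers of genes called are the same with or without them.

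**Figure D1:**
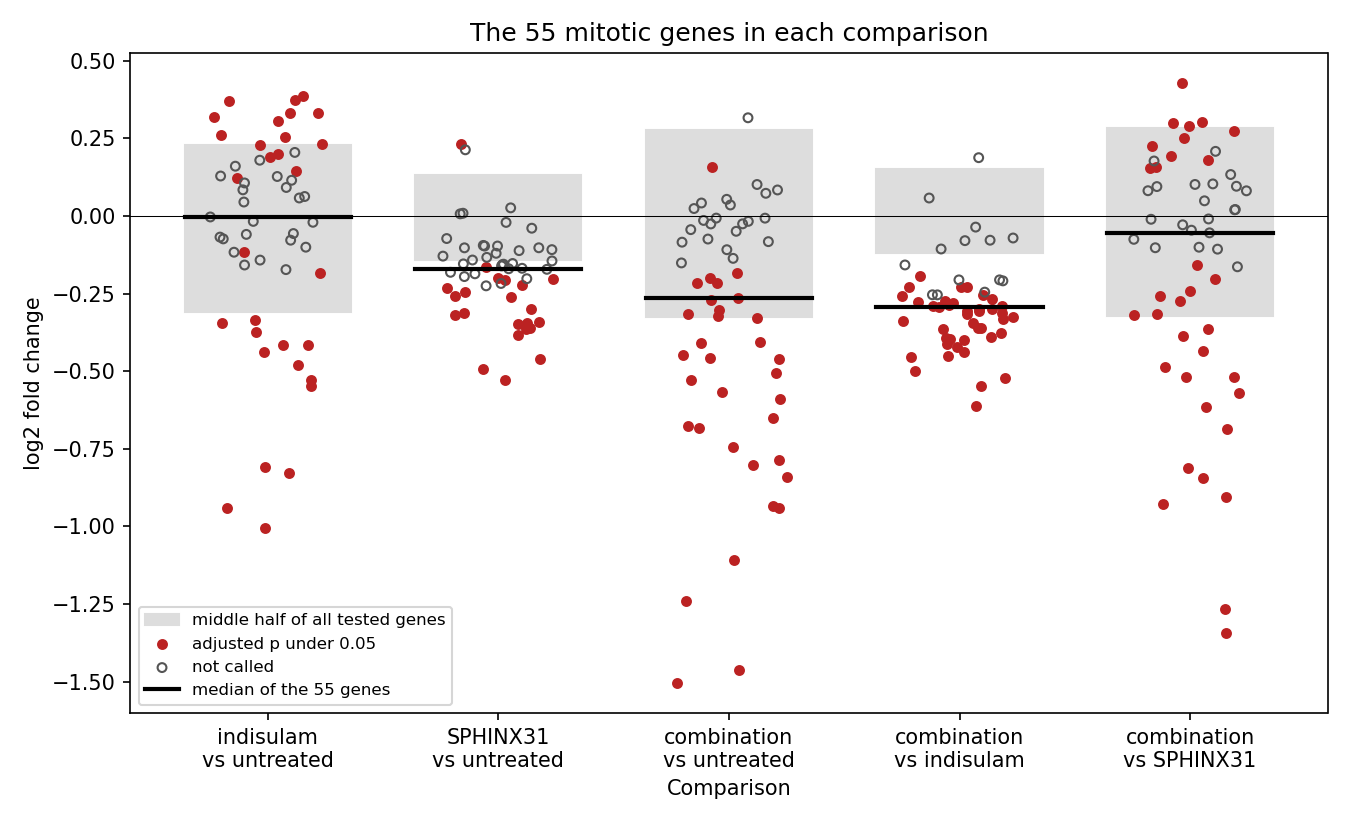
Log2 fold change (vertical axis) of the 55 genes in each of 5 comparisons (horizontal axis), with filled points for an adjusted p-value under 0.05, open points for the rest, a black line at the median of the 55 genes and a grey band over the middle 50% of all 18661 tested genes. The points spread to both sides with indisulam (median -0.003) and lie mostly below 0 in the combination against indisulam (median -0.29).

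With indisulam alone the mitotic genes split evenly in direction. Condensin subunits, the topoisomerase TOP2A, the cytokinesis activator ECT2, the phosphatase CDC25C and the transcription factor MYBL2 fell, while the cyclin CCNB2, the kinases MELK and WEE1, the passenger subunit CDCA8 and the securin PTTG1 rose. A gene was called where the quasi-likelihood test of edgeR, with p-values adjusted (Benjamini-Hochberg) over the tested genes, gave an adjusted p-value under 0.05, and every adjusted p below comes from it. On this rule 15 of the 55 genes were higher and 15 were lower. Of all tested genes 20.1% were higher, 23.5% were lower and 43.7% were called in either direction. The median log2 fold change of the 55 genes was -0.003 and that of all tested genes -0.004, and the values ran from -1.004 (NCAPH) to 0.39 (CCNB2). Because RNA was taken from whole cultures, fewer cells in G2 or mitosis and less RNA per cell cannot be told apart in this or any later comparison.

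With SPHINX31 alone the genes called were almost all lower, led by the cytokinesis scaffold ANLN, the spindle pole protein ASPM, the WEE1-degradation factor CDCA3 and the microtubule-associated GTSE1. In this comparison 21 of the 55 genes were lower and 1, CDC25B, was higher. Of all tested genes 3.67% were lower, 4.94% were higher and 8.61% were called in either direction. The median log2 fold change was -0.17 for the 55 genes and -0.01 for all tested genes. This count rests on single libraries, as does that over all tested genes. The 22 called genes became 6 without untreated replicate 1, 3 without untreated replicate 2, 4 without SPHINX31 replicate 1 and 29 without SPHINX31 replicate 2. In the same order, the 1606 called among all tested genes became 482, 539, 697 and 1532. A correction for GC content gave 35 of the 55 genes and 2621 of all tested genes, and 3 of the 22 genes were called in all 8 fits that left out 1 library.

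In the combination 32 of the 55 genes were lower than in untreated cells and 1, CCNB2, was higher, a call that held in 5 of the 8 fits that left out 1 library. Among all tested genes 26.3% were lower, 23.8% were higher and 50% were called in either direction. The median log2 fold change was -0.26, against 0.00 for all tested genes, and the lowest values were -1.50 for NCAPH, -1.46 for TOP2A and -1.24 for ECT2.

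Setting the combination against indisulam alone asks what SPHINX31 added when indisulam was present. Here 41 of the 55 genes were lower and 0 were higher. The shares of all tested genes were 4.32% lower, 3.17% higher and 7.5% called in either direction. DESeq2 called 43 of the 55 genes in this comparison, and 1391 of all 18661 tested genes. The median log2 fold change was -0.29, against 0.00 for all tested genes, and the values of the called genes were narrow in range, from -0.61 (ANLN) to -0.19 (BIRC5). The count was 20 without combination replicate 1 and 23 without combination replicate 2, where the 1399 called among all tested genes became 609 and 440, and 16 of the 41 genes were called in all 8 fits that left out 1 library.

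Against SPHINX31 alone, the combination had 11 genes higher and 22 lower. In all tested genes the shares were 23.4% higher, 26.5% lower and 49.9% called in either direction. The extremes were NCAPH (-1.34) and WEE1 (0.43).

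The effect of each drug can be compared between pairs of groups that share no library. Of the 21 genes lower with SPHINX31 alone, 20 were also lower when SPHINX31 was added to indisulam, which is 95.2% of the first list and 48.8% of the 41 genes of the second. Among all tested genes the corresponding shares were 46.7% and 39.7%. The first shares are not on an equal footing, since the second comparison had 41 of the 55 genes lower but 4.32% of all tested genes. All 15 genes lower with indisulam alone were lower when indisulam was added to SPHINX31 (68.2% of the 22), and 10 of the 15 higher ones were higher again (66.7%, and 90.9% of the 11). For all tested genes the shares were 84.9% and 75.3% for lower genes, and 81.1% and 69.8% for higher genes.

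**Figure D2:**
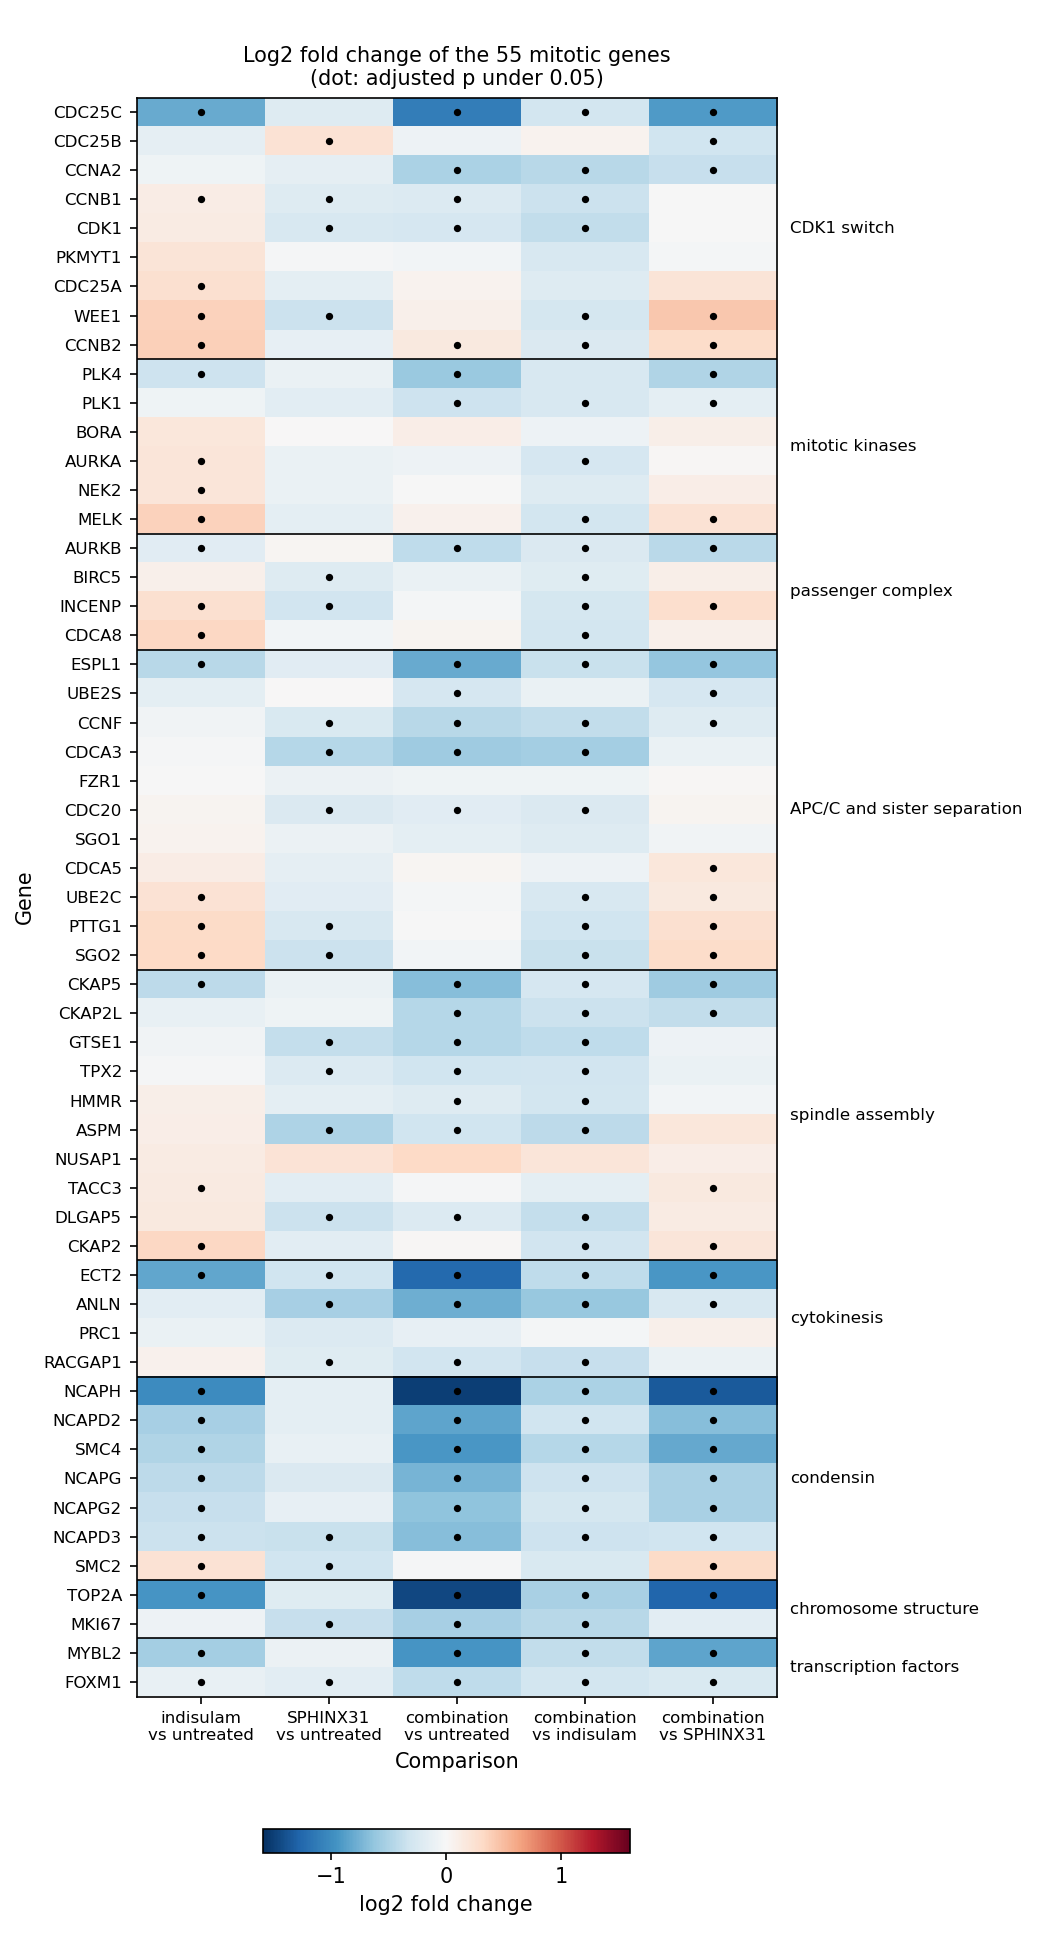
Log2 fold change (colour, blue lower and red higher) of each of the 55 genes (rows, grouped by role) in the 5 comparisons (columns), with a dot where the adjusted p-value was under 0.05. The condensin block is blue in every comparison except for SMC2, and the column of the combination against indisulam holds dots for 41 genes, all blue (NUSAP1 and PRC1 were hardly counted).

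The interaction of both drugs, the departure of the combination from the sum of the single effects on the log2 scale, was not called for any of the 55 genes by edgeR, nor for any of the 18661 tested genes (0%). At an unadjusted p-value under 0.05 it passed for 11 of the 55 genes and 1584 of all tested genes, while DESeq2 called 0 of the 55 and 31 of all genes. The 11 genes were CCNA2, AURKA, AURKB, CDCA8, CKAP2L, RACGAP1, SMC4, NCAPD2, NCAPH, TOP2A and MYBL2, all with negative values. The lowest value was a log2 value of -0.34 (SE 0.10, edgeR adjusted p = 0.428) for NCAPH, and the median was -0.10. With a looser filter on low counts, SMC4 and TOP2A were called, 2 of 94 genes called among the 34831 then tested.

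Within the CDK1 switch the mitotic cyclin CCNB2 rose with indisulam, CCNB1 passed the test narrowly, and the S and G2 cyclin CCNA2 did not pass it. CCNB2 was at 156 and 159.8 CPM untreated, 204 and 209 with indisulam, 143 and 145 with SPHINX31 and 174 and 179 combined. Its 2 indisulam libraries lay above all others and the combination lay between them and the untreated libraries, with log2 fold changes of 0.39 (SE 0.047, adjusted p = 2.07e-05) with indisulam, 0.16 (SE 0.047, adjusted p = 0.0129) in the combination and -0.23 (SE 0.047, adjusted p = 0.00924) for the combination against indisulam. CCNB1 was at 226 and 232 CPM untreated, 246 and 252 with indisulam, 199 and 198 with SPHINX31 and 193 and 201 combined. The indisulam libraries were again highest (0.12, SE 0.046, adjusted p = 0.0478), but that call was lost with a looser filter and with the GC correction, and held in 4 of the 8 fits that left out 1 library. The combination libraries lay below the untreated ones, at a log2 value of -0.22 (SE 0.046, adjusted p = 0.00160) relative to them. CCNA2, which partners CDK2 and CDK1 before mitosis, was at 106 and 107 CPM untreated, 100.2 and 103 with indisulam, 90.8 and 102 with SPHINX31 and 73.5 and 76.4 combined. Its combination libraries were the lowest of the 8, with log2 fold changes of -0.51 (SE 0.059, adjusted p = 1.05e-05) against untreated cells and -0.44 (SE 0.059, adjusted p = 0.000814) against indisulam.

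CDK1, the kinase itself, was at 146 and 149.7 CPM untreated, 163 and 159.8 with indisulam, 114 and 133 with SPHINX31 and 120.0 and 126 combined. The values with SPHINX31 and the combination lay below those of the other 2 groups, with log2 fold changes of -0.26 (SE 0.065, adjusted p = 0.0243) for SPHINX31 against untreated cells and -0.40 (SE 0.065, adjusted p = 0.00277) for the combination against indisulam. WEE1, which restrains CDK1, was at 21.8 and 22.2 CPM untreated, 29.3 and 27.6 with indisulam, 16.2 and 18.4 with SPHINX31 and 23.7 and 22.9 combined. It was highest with indisulam (0.37, SE 0.071, adjusted p = 0.000952) and lowest with SPHINX31 (-0.34, SE 0.073, adjusted p = 0.0112), and the combination stayed near the untreated level (0.08, SE 0.072, adjusted p = 0.358).

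The 3 CDC25 phosphatases, which remove the inhibitory marks from CDK1, went different ways. CDC25C was at 21.6 and 21.2 CPM untreated, 12.2 and 12.2 with indisulam, 18.7 and 18.5 with SPHINX31 and 9.36 and 10.5 combined. Its indisulam and combination libraries did not overlap with the untreated or SPHINX31 libraries, with log2 fold changes against untreated cells of -0.81 (SE 0.073, adjusted p = 1.67e-06) with indisulam and -1.11 (SE 0.074, adjusted p = 6.78e-08) in the combination. CDC25A rose with indisulam (0.26, SE 0.083, adjusted p = 0.0219), while CDC25B was the gene higher with SPHINX31 (0.23, SE 0.059, adjusted p = 0.0270), at 337 and 323 CPM untreated, 287 and 311 with indisulam, 409 and 366 with SPHINX31 and 310.1 and 312 combined. PKMYT1, the second inhibitor kinase of CDK1, passed in none of these comparisons, with values from -0.25 to 0.20, and 24.7% of its exonic bases lie under the opposite-strand gene PAQR4.

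Of the 6 mitotic kinases and activators, 3 were higher with indisulam, 1 was lower, and none passed with SPHINX31 alone. Over all tested genes 20.1% were higher and 23.5% lower with indisulam, and 8.61% were called with SPHINX31. PLK4, which starts centriole duplication, was at 29.4 and 31.1 CPM untreated, 25.9 and 21.999 with indisulam, 25.5 and 30.7 with SPHINX31 and 21.1 and 19.1 combined. It was the member of the group that fell with indisulam (-0.33, SE 0.095, adjusted p = 0.0119) and in the combination (-0.59, SE 0.096, adjusted p = 0.000202). PLK1, the main Polo-like kinase, was at 209 and 208 CPM untreated, 189.9 and 207 with indisulam, 183 and 188 with SPHINX31 and 163 and 169 combined. It did not pass with indisulam (-0.07) and was lower in the combination against untreated cells (-0.33, SE 0.052, adjusted p = 0.000156).

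MELK, a kinase of the same G2/M programme, was at 107 and 111 CPM untreated, 143 and 139 with indisulam, 89.3 and 107 with SPHINX31 and 112 and 118 combined, with the indisulam libraries above all others (0.37, SE 0.070, adjusted p = 0.000804) and the combination near untreated cells (0.07, SE 0.070, adjusted p = 0.413). AURKA, the spindle pole Aurora kinase, was at 136 and 139 CPM untreated, 157 and 156 with indisulam, 125 and 131 with SPHINX31 and 128 and 131 combined, with a log2 value of 0.19 (SE 0.048, adjusted p = 0.00575) for indisulam against untreated cells, and did not pass in the combination (-0.08, SE 0.048, adjusted p = 0.168). The centrosome kinase NEK2 was also higher with indisulam (0.20, SE 0.062, adjusted p = 0.0200), and BORA, the activator of AURKA, passed in none of the comparisons and shares 37.0% of its exonic bases with DIS3 on the opposite strand.

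The 4 subunits of the chromosomal passenger complex, which corrects attachments and steers cytokinesis, did not move together with indisulam. All 4 were called lower in the combination than with indisulam alone, against 4.32% of all tested genes. The AURKB and BIRC5 calls were lost with library totals alone. The BIRC5 call was also lost with only the groups compared. AURKB, the kinase subunit, was at 57.9 and 61.9 CPM untreated, 52.96 and 52.5 with indisulam, 63.1 and 58.8 with SPHINX31 and 45.2 and 44.9 combined. It fell with indisulam (-0.18, SE 0.057, adjusted p = 0.0198) and in the combination (-0.41, SE 0.058, adjusted p = 5.56e-05). INCENP, the scaffold, was at 94.9 and 97.2 CPM untreated, 111 and 118 with indisulam, 73.9 and 82.1 with SPHINX31 and 97.8 and 90.9 combined. CDCA8 (borealin) was at 51.3 and 51.8 CPM untreated, 65.02 and 64.8 with indisulam, 49.3 and 50.95 with SPHINX31 and 51.9 and 54.2 combined. Both were highest in the indisulam libraries, with log2 fold changes of 0.25 (SE 0.061, adjusted p = 0.00439) and 0.33 (SE 0.052, adjusted p = 0.000193), and neither passed in the combination against untreated cells (-0.03 and 0.04). BIRC5 (survivin) was at 143 and 147 CPM untreated, 149.6 and 158 with indisulam, 123 and 128 with SPHINX31 and 133 and 136 combined and passed with SPHINX31 (-0.20, SE 0.050, adjusted p = 0.0220) but not with indisulam (0.08).

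Among the 11 genes for the APC/C and sister separation, 3 were higher and 1 was lower with indisulam. All tested genes gave 20.1% higher and 23.5% lower in that comparison. ESPL1 (separase), the protease that cuts cohesin, was at 85.4 and 88.1 CPM untreated, 65.4 and 62.4 with indisulam, 74.4 and 78.05 with SPHINX31 and 53.4 and 46.2 combined. Its values went down from untreated cells through indisulam to the combination with no overlap between these groups, with log2 fold changes of -0.44 (SE 0.066, adjusted p = 0.000129) with indisulam and -0.80 (SE 0.066, adjusted p = 4.8e-07) in the combination. PTTG1 (securin), the inhibitor of separase, was at 112 and 112 CPM untreated, 138 and 139 with indisulam, 91.7 and 95.9 with SPHINX31 and 111 and 113 combined. It rose with indisulam, where ESPL1 fell (0.31, SE 0.048, adjusted p = 0.000185), and did not pass in the combination against untreated cells (-0.01, SE 0.048, adjusted p = 0.919).

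SGO2, a protector of centromeric cohesin, was at 31.03 and 34.5 CPM untreated, 42.8 and 38.8 with indisulam, 23.3 and 28.3 with SPHINX31 and 32.1 and 31.4 combined. UBE2C, an E2 enzyme of the APC/C, was at 68.9 and 66.2 CPM untreated, 75.4 and 83.4 with indisulam, 60.2 and 58.99 with SPHINX31 and 64.7 and 68.1 combined. They were highest with indisulam (0.32, SE 0.086, adjusted p = 0.00877 and 0.23, SE 0.059, adjusted p = 0.00623), and both were lower in the combination than with indisulam (-0.36, SE 0.086, adjusted p = 0.0223 and -0.26, SE 0.059, adjusted p = 0.0192). SGO1, the paralog of SGO2, passed in none of the comparisons.

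CDC20, the activator of the APC/C at anaphase, was at 122 and 120.0 CPM untreated, 119 and 130.1 with indisulam, 102 and 104 with SPHINX31 and 106 and 107 combined. CCNF (cyclin F), a substrate receptor of an SCF ligase, was at 65.9 and 65.7 CPM untreated, 60.98 and 65.3 with indisulam, 54.4 and 56.5 with SPHINX31 and 49.6 and 46.9 combined. For both, the SPHINX31 and combination libraries lay below the untreated ones, with log2 fold changes of -0.23 (SE 0.053, adjusted p = 0.0154) and -0.25 (SE 0.056, adjusted p = 0.0162) with SPHINX31. CDCA3, an adaptor for the degradation of WEE1, was at 58.8 and 59.5 CPM untreated, 58.2 and 58.4 with indisulam, 39.4 and 46.6 with SPHINX31 and 41.2 and 38.6 combined. It did not pass with indisulam (-0.02, SE 0.070, adjusted p = 0.836), and it fell with SPHINX31 (-0.46, SE 0.071, adjusted p = 0.00168) and when SPHINX31 was added to indisulam (-0.55, SE 0.072, adjusted p = 0.000665). UBE2S passed as lower against untreated cells in the combination (-0.26, SE 0.065, adjusted p = 0.00421), CDCA5 (sororin) passed as higher in the combination against SPHINX31 (0.18, SE 0.052, adjusted p = 0.0106), and FZR1, the activator of the APC/C after mitosis, stayed between -0.09 and 0.02 without passing.

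Of the 10 spindle assembly genes, 7 were lower in the combination than in untreated cells and 8 were lower than with indisulam. The shares lower over all tested genes were 26.3% and 4.32%. CKAP5 (chTOG), a microtubule polymerase, was at 218 and 240.1 CPM untreated, 179.7 and 164 with indisulam, 199 and 225 with SPHINX31 and 145 and 140.0 combined. It was the gene of the group that fell with indisulam (-0.41, SE 0.068, adjusted p = 0.000281), and it was also lower in the combination (-0.68, SE 0.068, adjusted p = 2.71e-06). ASPM, which organises spindle poles, was at 174 and 199 CPM untreated, 218 and 184 with indisulam, 115 and 150.1 with SPHINX31 and 156 and 144 combined. Its mean was lowest with SPHINX31, where it fell (-0.49, SE 0.11, adjusted p = 0.0130), a call that was lost with DESeq2. The SPHINX31 and combination libraries overlapped, and the 2 libraries of a group lay well apart in all but the combination.

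CKAP2, a microtubule stabiliser, was at 77.6 and 83.9 CPM untreated, 104 and 98.8 with indisulam, 66.3 and 77.2 with SPHINX31 and 78.9 and 85.1 combined. Its relative CKAP2L was at 42.7 and 42.6 CPM untreated, 39.9 and 38.8 with indisulam, 37.9 and 43.3 with SPHINX31 and 30.3 and 31.8 combined. With indisulam CKAP2 rose (0.33, SE 0.072, adjusted p = 0.00219) and CKAP2L did not pass (-0.12), and both were lower in the combination than with indisulam (-0.31 and -0.34). The difference between them was not tested.

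TPX2, the activator of AURKA on microtubules, was at 209 and 215 CPM untreated, 215 and 204 with indisulam, 176 and 187 with SPHINX31 and 165 and 173 combined. GTSE1, which stabilises microtubules and restrains p53 in G2, was at 48.5 and 46.5 CPM untreated, 44.4 and 46.98 with indisulam, 34.95 and 37.9 with SPHINX31 and 34.99 and 34.2 combined. Their libraries with SPHINX31, alone or combined, lay below all others, with log2 fold changes of -0.22 (SE 0.052, adjusted p = 0.0187) and -0.38 (SE 0.061, adjusted p = 0.00200) with SPHINX31 alone, while their indisulam values were -0.02 and -0.06 and did not pass.

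DLGAP5 (HURP), a spindle protein that binds importin, was at 106 and 116 CPM untreated, 124 and 124 with indisulam, 79.7 and 94.1 with SPHINX31 and 94.8 and 95.9 combined. HMMR, a centrosome-linked spindle factor, was at 121 and 129 CPM untreated, 134 and 132 with indisulam, 105 and 119 with SPHINX31 and 104 and 113 combined. Both had their highest mean with indisulam without passing against untreated cells, and both passed as lower in the combination against indisulam (-0.38, SE 0.070, adjusted p = 0.00580 and -0.29, SE 0.066, adjusted p = 0.0166). TACC3, the partner of CKAP5 on spindle fibres, passed as higher with indisulam (0.14, SE 0.051, adjusted p = 0.0370) and not in the combination (-0.01). The indisulam call was lost with a looser filter and held in 4 of the 8 fits that left out 1 library.

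The cytokinesis genes held one of the largest falls. ECT2, the exchange factor that activates RhoA at the cleavage furrow, was at 512 and 547 CPM untreated, 308 and 288 with indisulam, 387 and 465 with SPHINX31 and 228 and 220.2 combined. The 4 groups did not overlap, and the log2 fold changes against untreated cells were -0.83 (SE 0.073, adjusted p = 1.36e-06) with indisulam, -0.31 (SE 0.073, adjusted p = 0.0174) with SPHINX31 and -1.24 (SE 0.074, adjusted p = 2.51e-08) in the combination. ANLN (anillin), which links actin and myosin in the furrow, was at 242 and 246 CPM untreated, 224 and 208 with indisulam, 147 and 191 with SPHINX31 and 147 and 136 combined. It did not pass with indisulam (-0.17, SE 0.090, adjusted p = 0.136) but fell with SPHINX31 (-0.53, SE 0.090, adjusted p = 0.00307) and when SPHINX31 was added to indisulam (-0.61, SE 0.090, adjusted p = 0.00139). Left-out libraries moved the SPHINX31 value between -0.73 and -0.36, and it was called in all 8 such fits. RACGAP1, which binds ECT2 at the midzone, was at 159 and 157 CPM untreated, 166 and 164 with indisulam, 133 and 143 with SPHINX31 and 127 and 130.0 combined, and the SPHINX31 and combination libraries, but not the indisulam ones, were below untreated cells (-0.20, SE 0.051, adjusted p = 0.0267 and -0.30, SE 0.051, adjusted p = 0.000249).

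Of the 7 condensin genes, 6 were lower with indisulam and in the combination against untreated cells, while SMC2 was called higher with indisulam, in 3 of the 8 fits that left out 1 library. The shares lower over all tested genes were 23.5% with indisulam and 26.3% in the combination against untreated cells. Condensin I and II share the SMC2 and SMC4 core, while NCAPH, NCAPG and NCAPD2 belong to condensin I, and NCAPG2 and NCAPD3 to condensin II. NCAPH, the kleisin of condensin I, was at 58.99 and 61.4 CPM untreated, 32.1 and 27.8 with indisulam, 51.3 and 56.4 with SPHINX31 and 21.7 and 20.8 combined. Its gene lies at chr2:96335766-96377091 (GRCh38, plus strand). The NCAPH level fitted by edgeR was 49.9% of that in untreated cells with indisulam and 35.2% in the combination. As log2 fold changes these were -1.004 (SE 0.073, adjusted p = 2.3e-07) and -1.50 (SE 0.075, adjusted p = 4.7e-09), with -0.50 (SE 0.076, adjusted p = 0.00174) between the combination and indisulam.

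The other condensin I subunits followed in the same direction. NCAPD2 was at 392 and 407 CPM untreated, 278 and 275 with indisulam, 351 and 365 with SPHINX31 and 224 and 221 combined, with log2 fold changes of -0.53 (SE 0.047, adjusted p = 1.33e-06) with indisulam and -0.84 (SE 0.047, adjusted p = 1.38e-08) in the combination. NCAPG was at 83.2 and 86.7 CPM untreated, 66.7 and 60.5 with indisulam, 67.9 and 77.4 with SPHINX31 and 51.6 and 49.9 combined, with log2 fold changes of -0.42 (SE 0.068, adjusted p = 0.000267) and -0.74 (SE 0.069, adjusted p = 1.27e-06). For both genes no library with indisulam reached the lowest library without it, and NCAPG shares 33.7% of its exonic bases with LCORL on the opposite strand.

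In condensin II, NCAPG2 was at 129.6 and 134 CPM untreated, 104 and 99.4 with indisulam, 111 and 130.0 with SPHINX31 and 83.1 and 84.6 combined, and was lower with indisulam (-0.37, SE 0.066, adjusted p = 0.000517) and in the combination (-0.65, SE 0.067, adjusted p = 3.44e-06). NCAPD3 was at 81.4 and 82.01 CPM untreated, 67.9 and 60.9 with indisulam, 57.3 and 69.9 with SPHINX31 and 52.8 and 49.5 combined. It was the condensin subunit apart from SMC2 that also passed with SPHINX31 (-0.36, SE 0.081, adjusted p = 0.0150), and it was lower with indisulam (-0.34, SE 0.081, adjusted p = 0.00394) and in the combination (-0.68, SE 0.082, adjusted p = 1.52e-05). The kleisin of condensin II, NCAPH2, which is not among the 55, was lower too, with log2 fold changes of -0.21 with indisulam and -0.31 in the combination.

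The common core has 2 ATPase subunits. SMC4 was at 473 and 509 CPM untreated, 369 and 335 with indisulam, 419 and 484 with SPHINX31 and 255 and 259 combined, and fell with indisulam (-0.48, SE 0.069, adjusted p = 9.27e-05) and in the combination (-0.93, SE 0.069, adjusted p = 1.72e-07). SMC2 was at 92.02 and 95.4 CPM untreated, 114 and 106 with indisulam, 66.01 and 84.1 with SPHINX31 and 91.4 and 93.8 combined. It was highest with indisulam (0.23, SE 0.085, adjusted p = 0.0437), lowest with SPHINX31 (-0.32, SE 0.086, adjusted p = 0.0355), and did not pass in the combination against untreated cells (-0.02, SE 0.085, adjusted p = 0.886). SPHINX31 replicate 1 was the lowest of the 8 libraries for SMC2. Of the 8 fits that left out 1 library, the SPHINX31 call of SMC2 also held in 3, with values from -0.51 to -0.16.

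TOP2A, the topoisomerase that works beside condensin, was at 629 and 685 CPM untreated, 355 and 330.0 with indisulam, 534 and 613 with SPHINX31 and 239 and 238 combined. It fell with indisulam (-0.94, SE 0.066, adjusted p = 1.82e-07) and in the combination (-1.46, SE 0.067, adjusted p = 2.62e-09), where the level fitted by edgeR was 36.3% of that in untreated cells. The combination was also below indisulam alone (-0.52, SE 0.066, adjusted p = 0.000533). MKI67, the chromosome-coating protein Ki-67, was at 479 and 560.4 CPM untreated, 540.3 and 444 with indisulam, 387 and 420.2 with SPHINX31 and 375 and 346 combined. Its 2 indisulam libraries lay 1 inside and 1 below the range of the untreated libraries (-0.08, SE 0.088, adjusted p = 0.501), whereas it was lower with SPHINX31 (-0.36, SE 0.088, adjusted p = 0.0216) and in the combination (-0.53, SE 0.089, adjusted p = 0.00025). The SPHINX31 call of MKI67 was lost with DESeq2. It did not hold in every fit that left out 1 library, where the value ran from -0.47 to -0.25.

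Both transcription factors were lower in the combination than in any other group, and MYBL2 was also lower with indisulam alone. MYBL2, which joins MuvB to activate late cell cycle genes, was at 127 and 127 CPM untreated, 84.4 and 89.7 with indisulam, 114 and 124 with SPHINX31 and 65.1 and 67.4 combined. It fell with indisulam (-0.55, SE 0.056, adjusted p = 4.51e-06) and in the combination (-0.94, SE 0.056, adjusted p = 2.51e-08), which was also below indisulam alone (-0.39, SE 0.056, adjusted p = 0.00114), and it did not pass with SPHINX31 alone (-0.10, SE 0.055, adjusted p = 0.307). FOXM1, which follows it onto G2/M promoters, was at 212 and 216 CPM untreated, 199 and 196 with indisulam, 189.6 and 193 with SPHINX31 and 162 and 162 combined. The single-drug values were -0.12 (SE 0.045, adjusted p = 0.0495) with indisulam and -0.16 (SE 0.045, adjusted p = 0.0386) with SPHINX31, and the value in the combination was -0.41 (SE 0.045, adjusted p = 7.07e-06). Each single-drug call held in 2 of the 8 fits that left out 1 library. The indisulam call was also lost with RLE size factors, library totals alone, a looser filter, the GC correction and DESeq2, and the SPHINX31 call with library totals alone, a looser filter and only the groups compared.

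The SPHINX31 libraries differed from each other more than the other pairs. For 46 of the 55 genes SPHINX31 replicate 1 was below replicate 2, with a median log2 difference of 0.12, against 38 genes and 0.03 in the untreated pair, 20 genes and -0.02 in the indisulam pair, and 29 genes and 0.01 in the combination pair. The SPHINX31 falls given above are therefore means over libraries that do not sit at one level, and the source of the difference was not tested.

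Indisulam acts on splicing, so the size of the response was set against gene structure. The 55 genes had a median of 13 exons in the longest transcript, against 8 for the 14010 tested protein-coding genes, and a median GC content of 46.8% against 48.1%. Across 53 of the genes, without NUSAP1 and PRC1, Spearman's rho between exon number and log2 fold change was -0.47 with indisulam and -0.51 in the combination, where all tested protein-coding genes gave -0.15 and -0.18. The corresponding values for the summed exon length of the members were -0.34 and -0.38, and for GC content -0.11 and 0.03. With SPHINX31 exon number gave -0.19, summed exon length -0.32 and GC content 0.24. For the combination against indisulam they gave -0.32, -0.30 and 0.36. In the same order, all tested protein-coding genes gave -0.05, 0.02 and -0.08 with SPHINX31. For the combination against indisulam those genes gave -0.11, -0.04 and 0.12. Genes are not independent replicates and share the same 8 libraries, so these values are descriptions. SMC2, with 25 exons, and MELK, with 18 exons, were higher with indisulam, while NCAPH, also with 18 exons, had the largest fall.

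Other genes of mitosis and of the cell cycle were counted in lists set down beside the 55. The shares over all tested genes were 23.5% lower and 20.1% higher with indisulam. For the combination against indisulam they were 4.32% lower and 3.17% higher. Of 25 kinetochore genes, 8 were lower and 5 higher with indisulam, with CENPI (-2.03) and CENPK (-1.62) lowest, and 14 were lower and 0 higher in the combination against indisulam. Of 12 kinesin genes, 4 were lower and 4 higher with indisulam, and 10 were lower and 0 higher in the combination against indisulam (KIF14 -0.58, KIF20A -0.57). Among 12 genes of the DREAM and MuvB complexes, which repress and activate CHR promoters, 4 were lower and 2 higher with indisulam, with the pocket protein gene RBL1 (p107) at -1.17 and LIN37 at 0.77.

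The 25 replication genes of G1/S had 6 lower and 6 higher in the combination against untreated cells, with a median log2 fold change of 0.05. With indisulam 12 were higher and 4 lower, the lowest being POLA1 (-1.24) and CDC45 (-0.77), and with SPHINX31 10 were lower and 0 higher. Against indisulam alone the combination had 2 of these 25 genes lower. PP2A-B55 is the phosphatase that opposes CDK1, and Greatwall restrains it. Of 8 genes of this pair, 5 were higher and 0 lower with indisulam, led by PPP2R2D (0.38) and PPP2R2A (0.29). The 13 cohesin genes had 4 higher and 1 lower, the 15 APC/C core genes 2 higher and 6 lower (ANAPC7 -0.76), the 15 augmin and gamma-tubulin genes 4 higher and 2 lower, and the 11 centrosome genes 4 higher and 3 lower (PCNT -0.72, CEP152 0.79), all with indisulam. Beside these counts stand 20.1% higher and 23.5% lower over all tested genes with indisulam. The matching shares were 4.94% and 3.67% with SPHINX31, and 23.8% and 26.3% in the combination against untreated cells.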

How the data were processed

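Whole-number read counts per Ensembl gene, with no normalization, were deposited by the authors for 8 libraries of polyadenylated, stranded RNA from A549 cells. The submitters' processing notes name GRCh38, HISAT2 2.2.1 and HTSeq, without roles, and the annotation and strand setting are not given in the sources used here. Reads in rows that name no gene stayed out of library sizes and tests, among them 3.67% to 5.87% outside features, 4.82% to 6.03% ambiguous and 5.24% to 5.81% without a unique alignment.

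Gene names, positions, exons and GC content came from GENCODE release 44 on GRCh38. In R 4.3.3 with edgeR 4.0.16, low genes were removed with filterByExpr, libraries were scaled by TMM, and all 8 were fitted together with 4 residual degrees of freedom. The quasi-likelihood test was used for each comparison, with p-values adjusted by the Benjamini-Hochberg method over the 18661 tested genes and called under 0.05. The scripts were checked on simulated counts.

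The members, the role groups and the other gene lists were chosen with earlier results of these data known. In each role group, values per library are given for every member called in the combination against indisulam, for the called member with the largest absolute log2 fold change in each comparison (average log2 CPM of at least 3) and for called members opposite in direction to their group's median with indisulam or in the combination. Paralogs may be set side by side, and the remaining members are given by range or fold change. From the other lists at most 2 genes were named per comparison.

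Alternatives were DESeq2 1.42.0, RLE size factors, library totals alone, looser and stricter filters, a threshold of 0.1, only the groups compared, a correction for GC content over 50 bins, a replicate block, each library left out, other exon lengths and the CHR letters. The untreated, indisulam, SPHINX31 and combination pairs differed beyond counting error (chi-square divided by its degrees of freedom 6.60 to 10.7), so each library was counted as 1 replicate.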

Additional observations from a re-analysis of the deposited data

How the results depend on the processing

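None of the 55 genes changed direction while called under any alternative tried. Counts of called genes stayed within 1.5 times those reported except as follows. With SPHINX31 the 22 genes became 35 (1 higher, 34 lower) under the GC correction, where 1606 of all tested genes became 2621, and the interaction, with 0 called, had 2 called under a looser filter, where 94 of all 34831 were called; the cause was not tested. With 1 library left out, where the lone library of a group was assumed to vary like the others, the counts ranged from 21 to 34 with indisulam, 3 to 29 with SPHINX31, 28 to 33 in the combination, 20 to 43 for the combination against indisulam and 26 to 33 against SPHINX31. The interaction stayed at 0. A replicate block gave 27, 21, 33, 40, 32 and 0 called genes in the same order, without CCNB1, TACC3 and FOXM1 with indisulam, FOXM1 with SPHINX31, and in the combination ASPM against indisulam and UBE2C against SPHINX31. Over all tested genes it gave 7851, 1330, 9077, 1169, 9074 and 0, against 8148, 1606, 9337, 1399, 9314 and 0 without a block. Same-numbered libraries did not deviate together in every pair of groups (correlations of -0.57 to 0.45 over 9980 genes), so the numbers were not taken to pair them. With the indisulam numbers exchanged, a block added after seeing the data gave 36, 32, 34, 46, 35 and 0. The counts over all tested genes rose as well, to 8952, 2630, 10014, 2252, 10005 and 12. With 2 technical replicates per group, variation between cultures was not measured.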
